A study of Rattus norvegicus with 12 samples.

Results

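Stumps of the rat sciatic nerve held in a verteporfin-loaded conduit of the 4:2 truncated-cone shape (VP4:2) were set against stumps in the unloaded conduit of that shape (CC4:2). The comparison took 6 of the 12 samples of the study, 3 in each group, chosen by their treatment labels. The other samples were 3 stumps in a conduit of the 4:4 shape (CC4:4) and 3 control stumps (Control), which served to estimate the spread between samples and whose levels are given for orientation. Per the design text, the loaded conduit was made to check the part that YAP plays in what the 4:2 conduit does to the stump. The labels name verteporfin as the agent of VP4:2, no agent for CC4:2, CC4:4 or Control, and no transgene or deletion. They give no strain, age, sex, dose, vehicle or time of collection, nor what the control stumps received or whether each stump came from its own rat. The p-values below therefore reflect how far these stumps differed from each other, and part of that spread may be technical.

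YAP and its paralogue TAZ (encoded by Yap1 and Wwtr1) are coactivators that enter the nucleus on stiff or spread substrates and switch on genes through TEAD proteins, while the kinases of the Hippo pathway (Stk3, Stk4, Lats1, Lats2) hold them back. Verteporfin is a porphyrin-type photosensitiser that blocks the binding of YAP to TEAD, and it has also been described to block autophagosome formation without light. After a nerve is cut, macrophages from the blood enter the stump, clear myelin debris and can fuse into multinucleated giant cells around a foreign material. Schwann cells, fibroblasts, perineurial cells and vessel cells make up the remaining tissue.

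Total counts were 16544418 to 17254978 in VP4:2 and 17138844 to 17585162 in CC4:2, with 17561 to 17984 genes detected in any of the 12 samples. On the first principal component, which held 58.4% of the variance, the VP4:2 stumps lay at 47.9, 34.2 and 28.2 and the CC4:2 stumps at 122, 118 and 84.4. Every CC4:4 and Control stump lay below -55. In the check of tissue against its markers, the Schwann cell gene Sox10 (112, 133 and 63.6 CPM in VP4:2 stumps, against 234, 215 and 109 in CC4:2 stumps) and the myelin gene Pmp22 (2399, 2731 and 2031 CPM in VP4:2 stumps, against 5307, 2822 and 2300.3 in CC4:2 stumps) were present in all 6 stumps. Skeletal muscle transcripts, by contrast, differed strongly between stumps of the same group, since 11 muscle genes summed to 5897, 7052 and 224 CPM in VP4:2 stumps and 1148, 11499 and 201 in CC4:2 stumps. Whether this muscle RNA bears on other results was not tested. CPM here and below are counts per 1000000 counts of the library, whose size was scaled with the trimmed mean of M values (TMM). A NovaSeq X Plus sequenced the first and second replicate in every group, and a DNBSEQ-T7 the third.

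Of 15712 genes tested, 979 (6.23%) differed between VP4:2 and CC4:2. Of these 822 (5.23%) were higher and 157 (0.999%) were lower in VP4:2. The counts of called genes in each list below are to be read against these shares. The median log2 fold change was 1.43 among the genes that rose, -0.999 among those that fell and -0.03 over all genes tested. A difference of at least 2-fold stood behind 684 of the calls (4.35% of the genes tested), 606 of them higher (3.86%) and 78 lower (0.496%). Log2 fold changes are VP4:2 over CC4:2 in log2 units, given with a standard error (SE) from the fit of all 12 libraries. The SE rests on a spread shared by the 4 groups, so it can exceed the scatter of the 6 compared stumps. A call means an adjusted p under 0.05 in edgeR's quasi-likelihood test with Benjamini-Hochberg adjustment over all genes tested. The 3 VP4:2 values did not overlap the 3 CC4:2 values in 977 of the called genes, against 32.2% of all genes tested. Since the tissue was measured in bulk, fewer cells of a type and less RNA per cell cannot be told apart in any result below.

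**Figure D1:**
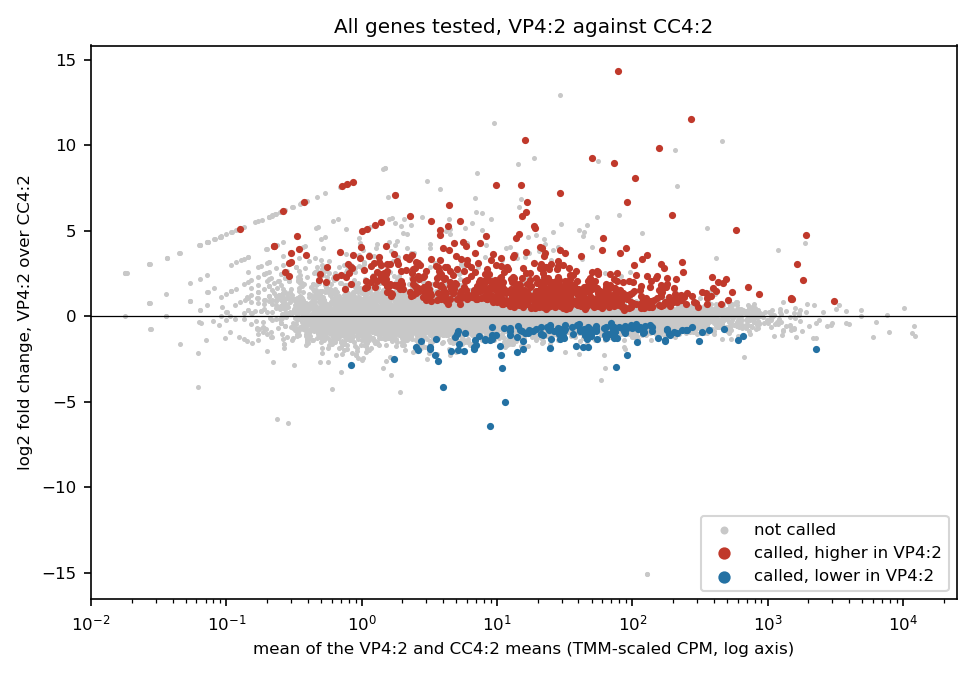
Log2 fold change of VP4:2 over CC4:2 for each of the 15712 genes tested (y axis) against its mean level over both groups (x axis, TMM-scaled CPM on a log scale). Red points are the 822 genes called higher in VP4:2, blue points the 157 called lower and grey points the genes not called, and the red cloud reaches much farther from 0 than the blue one.

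The number of calls leaned on single libraries. It fell to 466 without VP4:2 replicate 3, 548 without CC4:2 replicate 2 and 550 without VP4:2 replicate 1, and stood at 674, 658 and 746 without VP4:2 replicate 2, CC4:2 replicate 1 and CC4:2 replicate 3. It grew to 1496 without Control replicate 1, a stump that lay apart from the other controls on the second principal component. In the NovaSeq stumps alone, 2 per group, 202 genes were called, 194 higher and 8 lower, and 187 of them were among the 979. With each of the 6 stumps left out in turn, 407 genes kept their call every time, 388 of them higher and 19 lower. Called genes named below with no remark on single libraries are among these 407.

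In the YAP pathway 1 gene fell. Of 24 tested genes of YAP, TAZ, the TEAD factors, the Hippo kinases and their cofactors and upstream regulators, 0 rose and 23 were not called, a share of calls near the 6.23% of all genes. The median log2 fold change was -0.36 against -0.03 over all genes. An unadjusted p under 0.05 was found for 10 of the 24, against 22.1% of all genes, and DESeq2 called 4 and limma-voom 3. In 11 of the 24 all VP4:2 values lay under all CC4:2 values, against 14.6% of all genes, and in 3 they lay above, against 17.5%. Yap1 had 161, 152 and 144 CPM in VP4:2 stumps, against 193, 186 and 185 in CC4:2 stumps. All VP4:2 values lay under all CC4:2 values, and the difference of -0.30 ± 0.20 log2 units (adjusted p = 0.41) did not pass the test. Wwtr1, which encodes TAZ, had 158, 156 and 144 CPM in VP4:2 stumps, against 223, 179 and 190.2 in CC4:2 stumps, a difference of -0.37 ± 0.24 log2 units (adjusted p = 0.39). Tead1, the TEAD factor with the smallest p of its family here, had 20.2, 23.0 and 15.9 CPM in VP4:2 stumps, against 32.5, 25.8 and 25.1 in CC4:2 stumps, a difference of -0.50 ± 0.16 log2 units (adjusted p = 0.11). In each of these 3 genes the groups stood apart by a small margin and in the same order. The fall was that of Frmd6, a protein upstream of the Hippo kinases, with 171, 217 and 169 CPM in VP4:2 stumps, against 290.0, 331 and 336 in CC4:2 stumps. Its difference was -0.78 ± 0.18 log2 units (adjusted p = 0.025), but the call was lost without VP4:2 replicate 1 or 3 or CC4:2 replicate 2 or 3 (adjusted p 0.029 to 0.12 over the 6 stumps left out in turn), with the replicate number as a block (adjusted p = 0.052) and in the NovaSeq stumps alone. Without Control replicate 1, 5 members passed, with Frmd6, Wwc1 and Fat4 lower and Stk4 and Mob1a higher.

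The target genes of YAP, TAZ and TEAD lay on both sides of 0. Of 25 tested targets, 1 was lower, 0 were higher and 24 were not called, a share near the 6.23% called over all genes. Of their log2 fold changes 12 were above 0 and 13 below, with a median of -0.22. An unadjusted p under 0.05 was found for 9 of the 25, against 22.1% of all genes. All VP4:2 values lay under all CC4:2 values in 7 of the 25, against 14.6% of all genes, and above them in 3, against 17.5%. The 25 genes summed to 2334 to 2828 CPM in VP4:2 and 2345 to 3028 CPM in CC4:2, so the groups overlapped. Ccn2 and Ccn1 are the targets most often used as a readout of YAP, and both encode secreted matricellular proteins. Ccn2 had 456, 247 and 182 CPM in VP4:2 stumps, against 117, 209 and 133 in CC4:2 stumps, with VP4:2 replicate 1 far above the rest and a difference of 0.95 ± 0.46 log2 units (adjusted p = 0.26). Ccn1 had 225, 52.5 and 102 CPM in VP4:2 stumps, against 101, 105 and 46.6 in CC4:2 stumps, groups that overlapped, and a difference of 0.58 ± 0.54 log2 units (adjusted p = 0.55). Ankrd1, a nuclear ankyrin-repeat target, had 7.02, 6.499 and 1.24 CPM in VP4:2 stumps, against 2.06, 2.76 and 2.40 in CC4:2 stumps, a difference of 1.03 ± 1.01 log2 units (adjusted p = 0.59). In all 3 genes the groups overlapped, and none of the differences passed the test.

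The single target called was Rbms3, an RNA-binding protein, with 8.55, 8.49 and 8.49 CPM in VP4:2 stumps, against 14.7, 12.5 and 14.7 in CC4:2 stumps. Its difference of -0.71 ± 0.19 log2 units (adjusted p = 0.049) was lost without any one of the 6 stumps (adjusted p 0.074 to 0.17) and with the replicate block (adjusted p = 0.089). Without Control replicate 1 the targets called were 4, Rbms3 and Dock5 lower and Myof and Nt5e higher. DESeq2 and a fit of the 6 stumps alone called those 4 genes too, each in the direction just given.

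**Figure D2:**
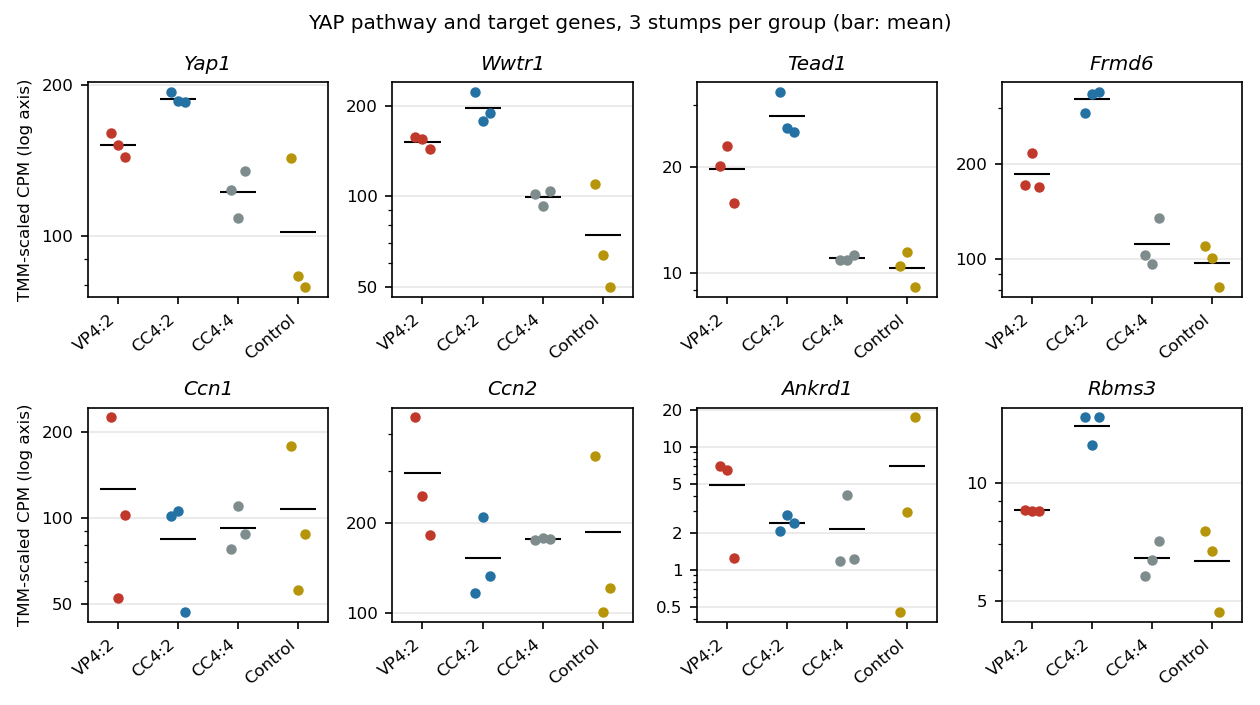
TMM-scaled CPM (log y axis) of 8 genes of the YAP pathway and its targets in each stump, by group, with the mean of 3 stumps as a bar. Yap1, Wwtr1, Tead1, Frmd6 and Rbms3 lie lower in all VP4:2 than in all CC4:2 stumps, whereas Ccn1, Ccn2 and Ankrd1 overlap between the groups.

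The promoters of Ccn2 and Ccn1 are shown because these genes are the usual readout of TEAD binding. Each runs from 250 bases before to 50 bases after the start of the gene in RefSeq's GRCr8 assembly, and capitals mark GGAATG on either strand. Ccn2 (ENSRNOG00000015036) holds 3 matches, Ccn1 (ENSRNOG00000014350) holds 1 on the reverse strand, and both genes lie on the minus strand of the chromosome (chr1:22624565-22624864 and chr2:237225640-237225939).
Ccn2: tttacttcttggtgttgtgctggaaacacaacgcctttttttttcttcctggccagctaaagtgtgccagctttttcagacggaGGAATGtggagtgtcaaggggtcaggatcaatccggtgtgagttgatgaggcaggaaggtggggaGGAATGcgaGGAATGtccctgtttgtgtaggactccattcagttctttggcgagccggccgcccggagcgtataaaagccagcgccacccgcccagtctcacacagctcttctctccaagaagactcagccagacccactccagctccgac
Ccn1: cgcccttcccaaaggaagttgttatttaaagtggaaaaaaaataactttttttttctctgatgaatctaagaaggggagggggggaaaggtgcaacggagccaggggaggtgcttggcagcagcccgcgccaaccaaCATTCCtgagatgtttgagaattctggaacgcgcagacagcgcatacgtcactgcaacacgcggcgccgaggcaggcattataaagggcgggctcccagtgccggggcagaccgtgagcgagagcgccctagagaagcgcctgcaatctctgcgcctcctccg
The Ccn2 matches begin 166, 101 and 92 bases before the start and the Ccn1 match 113 bases before it. Over all 33469 rat promoters in the RefSeq table, 14.2% hold GGAATG. Among tested genes with 1 promoter by symbol (10425 genes), the share was 11.7% of 547 genes that rose, 13.2% of 114 that fell and 11.1% of 9764 not called. These shares are descriptions of the letters, with no test, and a match is not a bound site.

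In the adhesion machinery that feeds into YAP, 1 stretch channel was called. Of 26 focal adhesion and stretch channel genes, 1 was lower, 0 were higher and 25 were not called, with a median of -0.12. Without CC4:2 replicate 1 there were 2 calls. Piezo2, the ion channel by which sensory endings detect touch, had 29.2, 32.8 and 30.8 CPM in VP4:2 stumps, against 73.3, 76.6 and 86.7 in CC4:2 stumps. Every VP4:2 value was under every CC4:2 value with a wide gap, a difference of -1.35 ± 0.20 log2 units (adjusted p = 0.0028), and -1.27 (adjusted p = 0.044) in the NovaSeq stumps alone. Levels in the other groups were 28.9 ± 4.88 CPM in CC4:4 and 21.3 ± 6.22 CPM in Control. Its paralogue Piezo1, a stretch channel of many cell types, had 104, 137 and 103 CPM in VP4:2 stumps, against 103, 214 and 139 in CC4:2 stumps, groups that overlapped, and a log2 difference of -0.41 ± 0.24 (adjusted p = 0.35). Among 16 genes of contractile cells 0 were called by edgeR, DESeq2 or limma-voom, 3 had an unadjusted p under 0.05, and Acta2 (smooth muscle actin) had 1083, 346 and 315 CPM in VP4:2 stumps, against 182, 324 and 206 in CC4:2 stumps, where VP4:2 replicate 1 was far above the others (log2 fold change 1.29 ± 0.50, adjusted p = 0.16).

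Macrophage transcripts rose broadly. Of 24 tested macrophage genes, 17 were higher, 0 were lower and 7 were not called, against 5.23% of all genes called higher, and the median log2 fold change was 1.55. The 24 genes summed to 14846 to 19969 CPM in VP4:2 and 4577 to 5077 CPM in CC4:2, with no overlap, beside 15990 to 20742 CPM in CC4:4 and 22872 to 25418 CPM in Control. Summed levels of the cytokine, giant cell, T and NK cell, B cell, MHC class II, phagocyte lipid and lysosomal lists were likewise apart, whereas those of the neutrophil, mast cell, interferon-stimulated and complement lists overlapped between the groups. The part of the macrophage sum in the results below was not tested. Gpnmb, a transmembrane glycoprotein of lipid-laden phagocytes, had 3125, 2309.9 and 3319 CPM in VP4:2 stumps, against 438, 327 and 301 in CC4:2 stumps. Each VP4:2 stump held several times the highest CC4:2 value, a difference of 3.04 ± 0.24 log2 units (adjusted p = 0.00012). Cd68, a lysosomal membrane protein that marks macrophages, had 221, 183 and 237 CPM in VP4:2 stumps, against 37.5, 42.2 and 46.5 in CC4:2 stumps (log2 fold change 2.35 ± 0.19, adjusted p = 0.00013). Itgam, the integrin chain CD11b of myeloid cells, had 224, 246 and 291 CPM in VP4:2 stumps, against 48.9, 53.2 and 49.0 in CC4:2 stumps (log2 fold change 2.33 ± 0.20, adjusted p = 0.0002). The groups were apart in all 3 genes, and within VP4:2 replicate 2 was lowest for Gpnmb and Cd68.

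Fcgr1a, the high-affinity receptor for IgG, rose by 1.83 ± 0.20 log2 units (adjusted p = 0.00055), with 75.6, 67.0 and 96.5 CPM in VP4:2 stumps, against 19.7, 20.7 and 26.9 in CC4:2 stumps. Trem2, a lipid receptor of macrophages, differed by 2.46 ± 0.35 log2 units (adjusted p = 0.0021), its signalling partner Tyrobp by 2.04 ± 0.30 log2 units (adjusted p = 0.0024) and the endotoxin coreceptor Cd14 by 1.71 ± 0.25 log2 units (adjusted p = 0.0024). Arg1, arginase, an enzyme of wound-healing macrophages, had 25.7, 70.7 and 29.1 CPM in VP4:2 stumps, against 2.54, 3.44 and 3.60 in CC4:2 stumps (log2 fold change 3.71 ± 0.62, adjusted p = 0.0051). Arg1 averaged 137 ± 36.7 CPM in CC4:4 and 191 ± 155 CPM in Control (SD, n = 3 each). Spp1 (osteopontin, a secreted adhesion protein of foam cells and wound macrophages) had 1744, 3964 and 5326 CPM in VP4:2 stumps, against 265, 87.1 and 57.0 in CC4:2 stumps, with VP4:2 replicate 1 lowest and CC4:2 replicate 1 highest of their groups. Its difference of 4.75 ± 0.88 log2 units (adjusted p = 0.0094) missed the threshold without CC4:2 replicate 2 (adjusted p 0.013 to 0.053 over the 6 leave-outs).

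Several macrophage markers were not called. Mrc1, the mannose receptor, differed by 0.57 ± 0.34 log2 units (adjusted p = 0.36) and Cd163, the haemoglobin scavenger receptor, by -0.22 ± 0.47 log2 units (adjusted p = 0.82), neither past the test. Csf1r, the receptor that keeps macrophages alive, had 445, 523 and 573 CPM in VP4:2 stumps, against 238, 359 and 340.4 in CC4:2 stumps (log2 fold change 0.72 ± 0.23, adjusted p = 0.095). Nos2, the nitric oxide synthase of inflammatory macrophages, had 5.43, 8.86 and 3.03 CPM in VP4:2 stumps, against 1.54, 3.55 and 1.36 in CC4:2 stumps (log2 fold change 1.43 ± 0.70, adjusted p = 0.26), beside 220.5 ± 137 CPM in CC4:4 and 381 ± 289.8 CPM in Control. With single libraries left out the count of macrophage genes that rose was 10 to 14, lowest without CC4:2 replicate 2, and 6 genes passed in the NovaSeq stumps alone. Of 11 tested neutrophil genes 0 were called by edgeR, DESeq2 or limma-voom, 1 had an unadjusted p under 0.05, and they summed to 29.3 to 32.1 CPM in VP4:2 and 23.5 to 33.2 CPM in CC4:2.

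**Figure D3:**
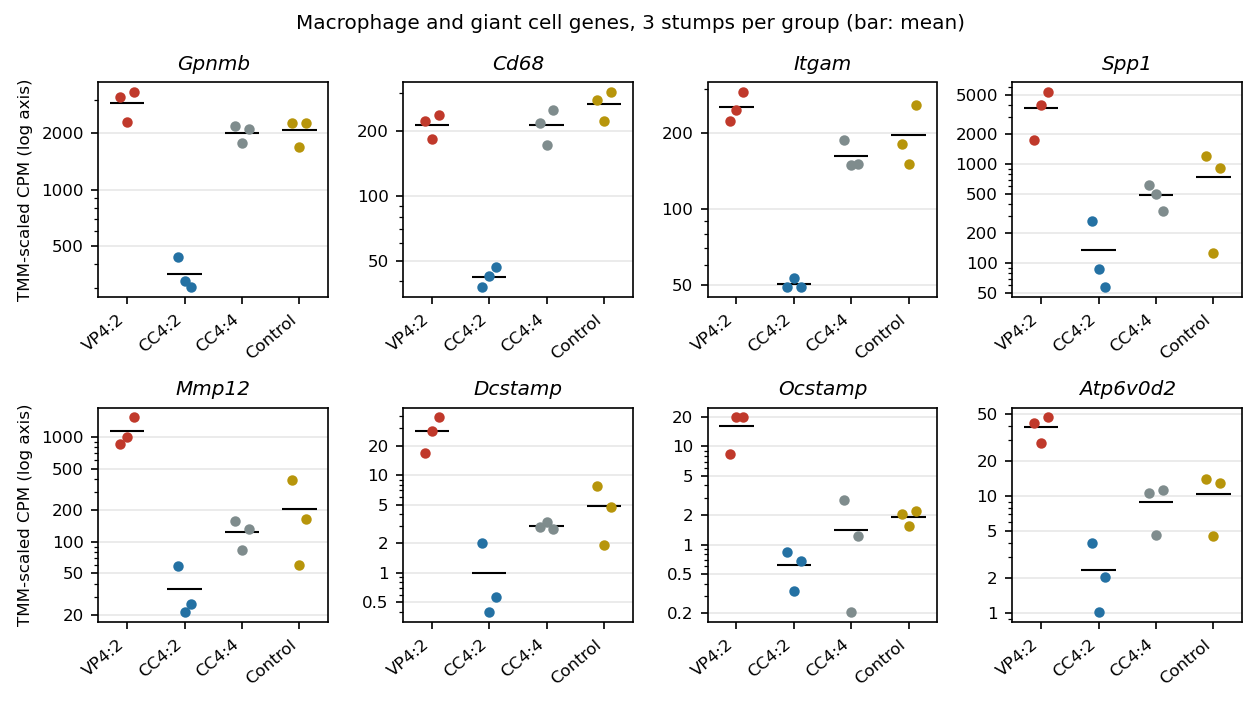
TMM-scaled CPM (log y axis) of 8 macrophage and giant cell genes in each stump, by group, with the mean of 3 stumps as a bar. In all 8 genes the 3 VP4:2 stumps lie above the 3 CC4:2 stumps, and Spp1, Mmp12, Dcstamp, Ocstamp and Atp6v0d2 lie above the CC4:4 and Control stumps as well.

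The promoters of Gpnmb and Cd68, the macrophage genes with the smallest p, are shown with the letters bound by the myeloid factor PU.1 (GAGGAAG) and by the MiT factors of lysosomal genes (TCATGTG, the M-box) in capitals, on either strand. They come from RefSeq's GRCr8 assembly, Gpnmb on the plus strand at chr4:79340878-79341177 and Cd68 on the minus strand at chr10:54882392-54882691.
Gpnmb: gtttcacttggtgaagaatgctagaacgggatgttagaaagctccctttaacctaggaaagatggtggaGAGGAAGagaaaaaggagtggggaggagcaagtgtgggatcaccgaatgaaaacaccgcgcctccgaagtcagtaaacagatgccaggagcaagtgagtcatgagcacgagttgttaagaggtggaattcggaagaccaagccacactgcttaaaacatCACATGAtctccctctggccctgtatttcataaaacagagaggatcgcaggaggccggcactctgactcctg
Cd68: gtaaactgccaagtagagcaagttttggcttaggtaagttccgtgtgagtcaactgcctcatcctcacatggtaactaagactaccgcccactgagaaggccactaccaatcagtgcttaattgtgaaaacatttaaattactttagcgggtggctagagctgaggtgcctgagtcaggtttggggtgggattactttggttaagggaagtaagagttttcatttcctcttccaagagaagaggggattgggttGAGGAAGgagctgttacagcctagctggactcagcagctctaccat
Gpnmb (ENSRNOG00000008816) holds 1 PU.1 match 181 bases before the start and 1 M-box on the reverse strand 22 bases before it, and Cd68 (ENSRNOG00000037563) holds 1 PU.1 match just after the start. The PU.1 letters stood in 12.4% of all promoters, in 23.9% of genes that rose, 7.02% of genes that fell and 12.8% of genes not called. The M-box stood in 3.56% of all promoters, in 5.30% of genes that rose, 0.877% of genes that fell and 2.11% of genes not called. Spi1, which encodes PU.1, had 55.1, 50.5 and 58.9 CPM in VP4:2 stumps, against 15.2, 22.4 and 18.2 in CC4:2 stumps (log2 fold change 1.56 ± 0.15, adjusted p = 0.00038), and Tfec, an MiT factor of macrophages, had 14.5, 12.2 and 15.1 CPM in VP4:2 stumps, against 3.23, 2.54 and 2.98 in CC4:2 stumps (log2 fold change 2.26 ± 0.17, adjusted p = 9.6e-05). The motifs were picked after the calls were known, so the shares describe and test nothing.

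Genes of multinucleated giant cells and osteoclasts rose with the macrophage genes. Of 14 tested, 8 were higher, 0 were lower and 6 were not called, with a median of 2.39, the highest of the 41 lists. Dcstamp and Ocstamp, membrane proteins required for the fusion of osteoclasts and giant cells, led the list. Dcstamp had 16.9, 28.3 and 39.0 CPM in VP4:2 stumps, against 2.01, 0.395 and 0.574 in CC4:2 stumps (log2 fold change 4.80 ± 0.65, adjusted p = 0.0016). Ocstamp had 8.28, 19.8 and 19.8 CPM in VP4:2 stumps, against 0.847, 0.338 and 0.679 in CC4:2 stumps (log2 fold change 4.66 ± 0.72, adjusted p = 0.0034). Atp6v0d2, a proton pump subunit of fused macrophages, had 42.5, 28.4 and 47.3 CPM in VP4:2 stumps, against 3.97, 1.02 and 2.04 in CC4:2 stumps (log2 fold change 4.06 ± 0.58, adjusted p = 0.002). Levels in CC4:4 and Control were 3.02 ± 0.269 CPM and 4.81 ± 2.88 CPM for Dcstamp and 8.86 ± 3.64 CPM and 10.5 ± 5.19 CPM for Atp6v0d2.

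Siglec15, a sialic acid receptor of osteoclasts, differed by 3.33 ± 0.45 log2 units (adjusted p = 0.0016), and Tnfsf11, the osteoclast differentiation factor RANKL, by 3.06 ± 0.51 log2 units (adjusted p = 0.0048). Tnfsf11 stood at 1.64, 3.12 and 3.95 CPM in VP4:2 stumps, against 0.371, 0.338 and 0.313 in CC4:2 stumps. Other osteoclast genes did not pass, among them Acp5 (tartrate-resistant acid phosphatase, log2 fold change 0.97 ± 0.27, adjusted p = 0.066), Tnfrsf11a (the receptor RANK, log2 fold change 0.72 ± 0.19, adjusted p = 0.052) and Nfatc1 (the transcription factor of osteoclast formation, log2 fold change -0.49 ± 0.17, adjusted p = 0.13). Tnfrsf11a had 13.3, 12.7 and 13.7 CPM in VP4:2 stumps, against 8.42, 8.85 and 6.89 in CC4:2 stumps, and Nfatc1 had 57.3, 61.1 and 52.5 CPM in VP4:2 stumps, against 71.5, 96.6 and 71.4 in CC4:2 stumps, so the groups did not overlap in either, in opposite directions. The count of giant cell genes that rose was 6 or 7 with a stump left out, and 0 passed in the NovaSeq stumps alone, with 2 stumps per group.

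Matrix-degrading enzymes held the largest rise of any gene named here. Of 23 proteases and inhibitors of the matrix, 4 were higher, 0 were lower and 19 were not called, with a median of 0.16. Mmp13, a collagenase, had 45.9, 73.5 and 56.0 CPM in VP4:2 stumps, against 0.212, 0.451 and 0.522 in CC4:2 stumps. It was near 0 in every CC4:2 stump, a difference of 7.18 ± 0.96 log2 units (adjusted p = 0.0015), and stood at 1306, 91.0 and 283 CPM in the Control stumps. Mmp12, the elastase of macrophages, had 855, 994 and 1549 CPM in VP4:2 stumps, against 58.8, 21.2 and 25.5 in CC4:2 stumps (log2 fold change 5.01 ± 0.70, adjusted p = 0.0019). Mmp3, stromelysin, had 51.8, 114 and 74.4 CPM in VP4:2 stumps, against 9.48, 27.0 and 14.9 in CC4:2 stumps (log2 fold change 2.23 ± 0.43, adjusted p = 0.012). The groups did not overlap in any of these enzymes. Mmp9, a gelatinase of myeloid cells and osteoclasts, had 79.2, 187 and 376 CPM in VP4:2 stumps, against 27.1, 25.04 and 11.2 in CC4:2 stumps, highest in VP4:2 replicate 3. Its difference of 3.34 ± 0.66 log2 units (adjusted p = 0.013) missed the threshold without CC4:2 replicate 2 (adjusted p 0.009 to 0.053). Without Control replicate 1 the list held 9 calls, with Mmp10, Mmp19 and Timp1 among those added as higher and Adamts1 added as lower, and in the NovaSeq stumps alone it held 0.

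Cytokine and chemokine genes rose in the same stumps. Of 31 tested, 16 were higher, 0 were lower and 15 were not called, with a median of 1.89. The chemokines that draw monocytes were among them, with Ccl2 at 49.8, 38.8 and 56.1 CPM in VP4:2 stumps, against 7.36, 3.72 and 10.2 in CC4:2 stumps (log2 fold change 2.76 ± 0.31, adjusted p = 0.00056) and Ccl7 at 25.3, 27.0 and 33.3 CPM in VP4:2 stumps, against 6.19, 4.29 and 9.502 in CC4:2 stumps (log2 fold change 2.10 ± 0.28, adjusted p = 0.0015). Cxcl13, the attractant of B cells, had 364, 418 and 464 CPM in VP4:2 stumps, against 49.9, 28.4 and 62.3 in CC4:2 stumps (log2 fold change 3.15 ± 0.34, adjusted p = 0.00049). Il1rn, the secreted antagonist of the interleukin 1 receptor, had 166, 129 and 210.1 CPM in VP4:2 stumps, against 13.4, 9.19 and 8.72 in CC4:2 stumps (log2 fold change 4.01 ± 0.44, adjusted p = 0.00053). In all 4 genes the lowest VP4:2 stump was above the highest CC4:2 stump.

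Ccl3, a macrophage chemokine, differed by 3.61 ± 0.53 log2 units (adjusted p = 0.0024) and Cxcl6, an attractant of neutrophils, by 4.72 ± 0.69 log2 units (adjusted p = 0.0024). Cxcl6 levels were low in both groups, at 7.13, 10.04 and 4.65 CPM in VP4:2 stumps, against 0.371, 0.169 and 0.261 in CC4:2 stumps, beside 219 ± 91.0 CPM in CC4:4 and 139 ± 102 CPM in Control. Tnf, the macrophage cytokine, had 1.75, 1.504 and 1.79 CPM in VP4:2 stumps, against 0.635, 0.451 and 0.418 in CC4:2 stumps (log2 fold change 1.73 ± 0.28, adjusted p = 0.0043). The cytokines of fever and acute inflammation were called less firmly. Il1b had 15.2, 12.03 and 15.8 CPM in VP4:2 stumps, against 3.34, 3.21 and 5.06 in CC4:2 stumps (log2 fold change 1.89 ± 0.39, adjusted p = 0.017), a call lost without VP4:2 replicate 1 or 3 or CC4:2 replicate 1 or 2 (adjusted p 0.027 to 0.077). Il6 had 2.69, 1.61 and 1.89 CPM in VP4:2 stumps, against 0.476, 0.169 and 0.157 in CC4:2 stumps (log2 fold change 2.91 ± 0.59, adjusted p = 0.015), a call lost without VP4:2 replicate 1 or CC4:2 replicate 2 or 3 (adjusted p 0.02 to 0.073). For scale, Il1b stood at 207 ± 89.0 CPM in CC4:4 and 313 ± 150.3 CPM in Control. Of the 16 rises, 10 were left without CC4:2 replicate 1 and 8 without CC4:2 replicate 2, limma-voom called 6, and 7 passed in the NovaSeq stumps alone.

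Mediators and channels of pain held changes in both directions. Of 21 tested, 5 were higher, 1 was lower and 15 were not called, with a median of 0.02. The rises were the cytokines Ccl2, Tnf, Il6 and Il1b given above and P2rx4, an ATP-gated channel of macrophages and microglia, at 86.4, 68.2 and 85.6 CPM in VP4:2 stumps, against 29.6, 33.3 and 29.4 in CC4:2 stumps (log2 fold change 1.38 ± 0.18, adjusted p = 0.0013). The fall was Hcn2, a pacemaker channel of nociceptors, at 3.07, 2.63 and 1.89 CPM in VP4:2 stumps, against 11.8, 7.73 and 4.33 in CC4:2 stumps (log2 fold change -1.65 ± 0.35, adjusted p = 0.018), a call lost without VP4:2 replicate 2 or 3 or CC4:2 replicate 1 or 2 (adjusted p 0.0058 to 0.093). Trpv1, the heat and capsaicin channel, differed by -0.62 ± 0.43 log2 units (adjusted p = 0.42) and Ptgs2, the inducible cyclooxygenase, by -0.63 ± 0.36 log2 units (adjusted p = 0.34), neither past the test. The count of 6 calls came to 3 without CC4:2 replicate 2 and to 3 in the NovaSeq stumps.

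A part of the lymphocyte transcripts rose, at low levels. Of 25 T and NK cell genes, 8 were higher, 0 were lower and 17 were not called, all 25 fold changes were above 0, and the median was 1.36. They summed to 184, 197 and 209 CPM in VP4:2 stumps and 40.3, 54.5 and 125 in CC4:2 stumps, so CC4:2 replicate 3 held the most among its group. Icos, a costimulatory receptor of activated T cells, had 7.51, 11.7 and 7.25 CPM in VP4:2 stumps, against 2.12, 0.62 and 1.10 in CC4:2 stumps (log2 fold change 2.77 ± 0.43, adjusted p = 0.0034). Cd3e, a chain of the T cell receptor complex, had 10.2, 13.6 and 17.1 CPM in VP4:2 stumps, against 1.69, 1.86 and 3.97 in CC4:2 stumps (log2 fold change 2.44 ± 0.38, adjusted p = 0.0035). The count was 3 to 5 without any one of the VP4:2 stumps or CC4:2 replicate 1 or 2, 13 without CC4:2 replicate 3, and 5 in the NovaSeq stumps. Of 16 B and plasma cell genes, 5 were higher, 0 were lower and 11 were not called, with a median of 1.86. Blnk, an adaptor of the B cell receptor that myeloid cells also express, had 26.3, 25.8 and 30.7 CPM in VP4:2 stumps, against 9.85, 6.48 and 7.78 in CC4:2 stumps (log2 fold change 1.78 ± 0.26, adjusted p = 0.0022). The B and plasma cell genes summed to 535, 1439 and 1203 CPM in VP4:2 stumps and 137, 178 and 336 in CC4:2 stumps. Mzb1, a chaperone of antibody-secreting cells, had 21.6, 36.1 and 33.8 CPM in VP4:2 stumps, against 0.476, 1.18 and 5.06 in CC4:2 stumps (log2 fold change 3.76 ± 0.89, adjusted p = 0.033), a call lost without any one stump except CC4:2 replicate 3. The B and plasma cell count was 1 or 2 without any one of the VP4:2 stumps or CC4:2 replicate 1 or 2, 6 without CC4:2 replicate 3, 10 without Control replicate 1, 9 with the replicate block and 0 in the NovaSeq stumps.

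Antigen presentation and complement held a few rises. Of 17 genes of MHC class II and dendritic cells, 5 were higher, 0 were lower and 12 were not called, with a median of 0.84. Itgax, the integrin chain CD11c of dendritic cells and inflammatory macrophages, had 94.3, 108 and 141 CPM in VP4:2 stumps, against 22.8, 21.9 and 18.8 in CC4:2 stumps (log2 fold change 2.43 ± 0.22, adjusted p = 0.00025). RT1-DMb, a chain of the exchanger that loads peptide on class II molecules, had 128, 121 and 162 CPM in VP4:2 stumps, against 53.3, 53.2 and 64.2 in CC4:2 stumps (log2 fold change 1.27 ± 0.14, adjusted p = 0.00049), and its partner RT1-DMa differed by 0.94 ± 0.14 log2 units (adjusted p = 0.0024). Of 18 complement genes, 3 were higher, 0 were lower and 15 were not called. C3ar1, the receptor for the C3a fragment, had 80.6, 58.3 and 90.2 CPM in VP4:2 stumps, against 19.4, 15.3 and 22.0 in CC4:2 stumps (log2 fold change 2.01 ± 0.28, adjusted p = 0.0018). The other calls, C1qa and C1qb, were lost without any one of the VP4:2 stumps or CC4:2 replicate 1 or 2, which left 1. Among 19 interferon-stimulated genes 1 was higher, Psmb8 of the immunoproteasome (log2 fold change 0.81 ± 0.17, adjusted p = 0.021), a call kept without VP4:2 replicate 2 and lost without any other of the 6 stumps.

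Lysosomal proteases and proton pumps rose in part. Of 29 lysosome and autophagy genes, 11 were higher, 0 were lower and 18 were not called, with a median of 0.40. Ctsz, a lysosomal cysteine protease, had 253, 228 and 277 CPM in VP4:2 stumps, against 65.8, 71.3 and 76.6 in CC4:2 stumps (log2 fold change 1.83 ± 0.15, adjusted p = 0.00017). Atp6v1a, the catalytic subunit of the lysosomal proton pump, had 209.8, 184 and 225 CPM in VP4:2 stumps, against 108, 91.6 and 102 in CC4:2 stumps (log2 fold change 1.03 ± 0.13, adjusted p = 0.0011), and Ctss, the protease that trims class II invariant chain, differed by 1.42 ± 0.23 log2 units (adjusted p = 0.0041). Sqstm1, the autophagy receptor p62, had 296, 275 and 259 CPM in VP4:2 stumps, against 266, 326 and 239 in CC4:2 stumps, groups that overlapped and did not pass the test. The list count was 7 without VP4:2 replicate 3 and 8 to 11 without any other stump, and 2 passed in the NovaSeq stumps.

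Lipid handling by phagocytes showed 8 rises among 21 tested genes, 0 falls and 13 genes not called, with a median of 0.48. Lipa, the acid lipase that frees cholesterol in lysosomes, had 315, 274 and 446 CPM in VP4:2 stumps, against 83.3, 66.7 and 77.5 in CC4:2 stumps (log2 fold change 2.19 ± 0.22, adjusted p = 0.00043). Fabp5, a fatty acid carrier, had 66.6, 47.3 and 73.7 CPM in VP4:2 stumps, against 16.1, 15.6 and 13.4 in CC4:2 stumps (log2 fold change 2.05 ± 0.25, adjusted p = 0.00096). The scavenger receptors Msr1 and Olr1 differed by 1.65 ± 0.25 log2 units (adjusted p = 0.0032) and 3.53 ± 0.62 log2 units (adjusted p = 0.0071), and Mertk, a receptor for apoptotic cells, by 0.78 ± 0.13 log2 units (adjusted p = 0.0054). The count was 5 or 6 with a stump left out, with 5 without VP4:2 replicate 1 or 3 or CC4:2 replicate 2 or 3, and 3 in the NovaSeq stumps. Of 21 genes of haem, iron and the NRF2 response, 4 were higher, 0 were lower and 17 were not called. Hmox1, the enzyme that breaks down haem, had 68.0, 60.6 and 78.4 CPM in VP4:2 stumps, against 16.04, 24.9 and 22.5 in CC4:2 stumps (log2 fold change 1.71 ± 0.21, adjusted p = 0.001), beside 219 ± 5.35 CPM in CC4:4 and 259 ± 62.6 CPM in Control. The other rises (Alas1, Gclc and Slc7a11) were each lost in 4 or 5 of the 6 fits with a stump left out, so that 1 or 2 calls were left under every one of the 6 leave-outs. Nqo1, a classic NRF2 target, differed by 0.27 ± 0.17 log2 units (adjusted p = 0.38).

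Cell cycle genes held 9 rises, against 5.23% of all genes called higher. Of 30 tested, 0 were lower and 21 were not called, with a median of 0.86. The rises included Cdkn1a, which encodes an inhibitor of the cell cycle (log2 fold change 1.46, adjusted p = 0.048). Whether the Cdkn1a call held with single stumps left out is not given here. Tk1, the thymidine kinase of S phase, had 11.5, 11.2 and 12.6 CPM in VP4:2 stumps, against 4.61, 5.02 and 5.12 in CC4:2 stumps (log2 fold change 1.26 ± 0.19, adjusted p = 0.0028). Ccna2, cyclin A2, had 10.6, 8.16 and 10.7 CPM in VP4:2 stumps, against 4.61, 3.10 and 3.39 in CC4:2 stumps (log2 fold change 1.41 ± 0.25, adjusted p = 0.0077), and Rrm2, a subunit of ribonucleotide reductase, had 16.3, 14.1 and 16.9 CPM in VP4:2 stumps, against 5.88, 4.17 and 5.69 in CC4:2 stumps (log2 fold change 1.59 ± 0.29, adjusted p = 0.0087). Mki67, the proliferation antigen, had 48.3, 46.2 and 57.1 CPM in VP4:2 stumps, against 28.5, 22.5 and 23.9 in CC4:2 stumps, without overlap but short of the threshold (log2 fold change 1.02 ± 0.28, adjusted p = 0.055). With each of the 6 stumps left out in turn, 3 or 4 genes of the list passed, 5 passed with the replicate block and 0 in the NovaSeq stumps. Of 18 genes of oxidative phosphorylation and its regulators 2 were higher (Cycs and Cox5a), and of 21 hypoxia and glycolysis genes 2 were higher. Of 25 genes of heat shock and the unfolded protein response 1 was higher, Sdf2l1, a protein of the endoplasmic reticulum (log2 fold change 1.27 ± 0.29, adjusted p = 0.025). These 3 counts stand against 5.23% of all genes called higher, and that of heat shock was near this share. The calls for Sdf2l1, the cytochrome c gene Cycs and the glycolytic genes Eno1 and Pgk1 were each lost in at least 4 of the 6 fits with a stump left out. The oxidative phosphorylation count was 0 without VP4:2 replicate 3, 1 without VP4:2 replicate 1 or CC4:2 replicate 2 or 3, 0 in the NovaSeq stumps, and 5 with DESeq2 and without Control replicate 1.

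Myelin genes lay lower in VP4:2 without passing the test. Of 20 myelin genes 0 were called by edgeR, DESeq2 or limma-voom, 0 had an unadjusted p under 0.05, 19 of 20 fold changes were below 0, the median was -0.60, and the groups overlapped in every gene. The list summed to 17872, 21931 and 14506 CPM in VP4:2 stumps and 41598, 23789.9 and 15969.6 in CC4:2 stumps, so CC4:2 replicate 1 held far more than the other 5 stumps. Pmp22, a membrane protein of compact myelin, differed by -0.54 ± 0.48 log2 units (adjusted p = 0.54). Of 16 Schwann cell identity genes 0 were called by edgeR or limma-voom, 1 by DESeq2 and 1 had an unadjusted p under 0.05, with a median of -0.64. Sox10, the factor that defines the lineage, differed by -0.86 ± 0.70 log2 units (adjusted p = 0.51). Gap43, a growth-associated protein of growing axons and immature Schwann cells, had 7.62, 6.61 and 8.33 CPM in VP4:2 stumps, against 14.6, 16.9 and 21.1 in CC4:2 stumps, apart but short of the threshold (log2 fold change -1.22 ± 0.44, adjusted p = 0.13). At the standard errors of Pmp22 and Sox10 a 2-fold difference was not detectable here.

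Of 14 genes of repair Schwann cells, 2 were higher, 0 were lower and 12 were not called. They were Runx2, lost without any one stump (adjusted p 0.052 to 0.13), and Atf3, a stress factor of injured neurons and Schwann cells, with 91.7, 65.4 and 87.5 CPM in VP4:2 stumps, against 52.3, 30.00 and 25.3 in CC4:2 stumps. The Atf3 difference of 1.18 ± 0.28 log2 units (adjusted p = 0.034) was lost without VP4:2 replicate 1 or 3 or CC4:2 replicate 2 or 3 (adjusted p 0.0093 to 0.12). Jun, the master factor of the repair state, had 136, 137 and 111 CPM in VP4:2 stumps, against 154, 178 and 127 in CC4:2 stumps (log2 fold change -0.26 ± 0.18, adjusted p = 0.45). Of 22 neurotrophic factor and receptor genes 0 were called by edgeR or limma-voom and 3 by DESeq2, and 7 had an unadjusted p under 0.05, with a median of -0.61. Igf2, insulin-like growth factor 2, came closest, with 15.3, 21.1 and 19.8 CPM in VP4:2 stumps, against 30.5, 54.8 and 32.0 in CC4:2 stumps (log2 fold change -1.06 ± 0.28, adjusted p = 0.051).

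Among genes of the nerve's wrapping and vessels 1 fibroblast gene rose and 1 endothelial gene fell, shares near the 6.23% called over all genes. Of 18 nerve fibroblast genes 1 was higher and 17 were not called, and in 6 all VP4:2 values lay under all CC4:2 values, against 14.6% of all genes. It was Sfrp1, a secreted Wnt antagonist, with 255, 414 and 318 CPM in VP4:2 stumps, against 173, 147 and 143 in CC4:2 stumps (log2 fold change 1.10 ± 0.22, adjusted p = 0.015), lost without VP4:2 replicate 2 or CC4:2 replicate 2 or 3. Of 11 perineurial genes 0 were called by edgeR, DESeq2 or limma-voom over the 12 libraries, 2 were called by edgeR in the 6 stumps alone and 3 had an unadjusted p under 0.05. All 11 lay below 0, 6 of them without overlap, with a median of -0.57. Itgb4, a laminin receptor of perineurial and Schwann cells, had 1396, 1599.9 and 1032 CPM in VP4:2 stumps, against 3326, 3431 and 2941 in CC4:2 stumps, and despite a gap between the groups its difference of -1.27 ± 0.54 log2 units (adjusted p = 0.19) did not pass. Of 15 endothelial genes 1 was lower, Vwf (von Willebrand factor), with 114, 152 and 93.4 CPM in VP4:2 stumps, against 233, 357 and 168 in CC4:2 stumps (log2 fold change -1.07 ± 0.27, adjusted p = 0.043), lost without VP4:2 replicate 1 or 3 or CC4:2 replicate 1 or 2. Of 9 pericyte genes 0 were called by edgeR or limma-voom and 1 by DESeq2, with 3 at an unadjusted p under 0.05. Of 18 adipocyte genes, 11 skeletal muscle genes and 6 red cell genes 0 were called by any of the 3 tools and 0 had an unadjusted p under 0.05. Of 11 mast cell genes 1 was higher, Il1rl1, the interleukin 33 receptor, with 33.9, 36.9 and 29.2 CPM in VP4:2 stumps, against 13.7, 14.7 and 14.6 in CC4:2 stumps (log2 fold change 1.22 ± 0.17, adjusted p = 0.0019). The other 10 mast cell genes were not called. Over the 11, 7 fold changes lay below 0 and 4 above, with a median of -0.24, so Il1rl1 did not stand for its list.

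The fibrous matrix list held a single call. It held 2 with the replicate block, in the 6 stumps alone or without Control replicate 1, and 3 with DESeq2. The count was 0 without VP4:2 replicate 1 or 2 or CC4:2 replicate 2 or 3, and in the NovaSeq stumps alone. Basement membrane chains, of which 6 of 23 were lower, are not in this list and are given further below. Of 32 genes of fibrous matrix, 1 was higher, 0 were lower and 31 were not called, with a median of -0.53. Of the 32 fold changes 26 lay below 0. In 7 genes all VP4:2 values lay under all CC4:2 values, against 14.6% of all genes, and in 2 they lay above, against 17.5%. Col1a1 had 8433, 9433 and 6007 CPM in VP4:2 stumps, against 8595, 24774 and 13354 in CC4:2 stumps, with CC4:2 replicate 2 highest (log2 fold change -0.97 ± 0.60, adjusted p = 0.37). The rise was Thbs1, an activator of latent TGF-beta, with 1628, 943 and 707 CPM in VP4:2 stumps, against 350.2, 329 and 315 in CC4:2 stumps (log2 fold change 1.72 ± 0.42, adjusted p = 0.036), a call kept without VP4:2 replicate 3 and lost without any other of the 6 stumps (adjusted p 0.042 to 0.13). In the TGF-beta system, 2 of 25 genes were higher and 2 were lower, against 5.23% and 0.999% of all genes. Of the 25 fold changes 18 lay below 0, with a median of -0.16. All VP4:2 values lay under all CC4:2 values in 8 genes, against 14.6% of all genes, and above them in 3, against 17.5%. Tgfb1 had 69.3, 66.9 and 73.0 CPM in VP4:2 stumps, against 34.4, 42.1 and 38.7 in CC4:2 stumps (log2 fold change 0.86 ± 0.14, adjusted p = 0.0047), and its receptor Tgfbr1 had 238, 198 and 286 CPM in VP4:2 stumps, against 110.1, 66.6 and 93.0 in CC4:2 stumps (log2 fold change 1.42 ± 0.27, adjusted p = 0.01). Ltbp1, which anchors latent TGF-beta in matrix, had 90.9, 89.3 and 85.3 CPM in VP4:2 stumps, against 165, 229 and 263 in CC4:2 stumps (log2 fold change -1.31 ± 0.30, adjusted p = 0.03). Its call was kept without CC4:2 replicate 1 and lost without any other of the 6 stumps (adjusted p 0.034 to 0.12) and with the replicate block (adjusted p = 0.056). The other fall, Bmp4, was lost without VP4:2 replicate 1 or 3 or CC4:2 replicate 2 or 3, and the count of 4 came to 2 without VP4:2 replicate 1 or CC4:2 replicate 3.

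Lipid synthesis and patterning signals held few calls. Of 29 genes of cholesterol and fatty acid synthesis and uptake, 2 were lower, 0 were higher and 27 were not called, with a median of -0.50 and against 0.999% of all genes called lower. An unadjusted p under 0.05 was found for 14 of the 29, against 22.1% of all genes, and in 13 all VP4:2 values lay under all CC4:2 values, against 14.6%. Among the genes called lower, Lss, lanosterol synthase, had 25.3, 19.2 and 22.8 CPM in VP4:2 stumps, against 44.7, 42.6 and 34.4 in CC4:2 stumps (log2 fold change -0.85 ± 0.20, adjusted p = 0.034). Its call was kept without CC4:2 replicate 3 and lost without any other of the 6 stumps. The list count was 10 with DESeq2, 0 without VP4:2 replicate 1 or 3 or CC4:2 replicate 2, 1 without VP4:2 replicate 2 or CC4:2 replicate 1, 6 without CC4:2 replicate 3, 7 without Control replicate 1 and 1 with the replicate block. Of 18 immediate early genes 1 was higher, Atf3, and of 12 cartilage and bone genes Runx2 was higher and Cilp2 lower. Of 35 Wnt and hedgehog genes, Sfrp1 was higher and Gli2, a transcription factor of hedgehog signalling, was lower, with 13.5, 15.1 and 12.2 CPM in VP4:2 stumps, against 24.2, 31.9 and 29.1 in CC4:2 stumps (log2 fold change -1.06 ± 0.21, adjusted p = 0.013). These calls were a share near the 6.23% of all genes, and the list median was -0.59. In 13 of the 35 all VP4:2 values lay under all CC4:2 values, against 14.6% of all genes, and in 3 they lay above, against 17.5%. The Gli2 call was lost without VP4:2 replicate 1 or 3 or CC4:2 replicate 2. Without CC4:2 replicate 2 the Wnt and hedgehog list held 0 calls, and without CC4:2 replicate 3 or any one of the VP4:2 stumps it held 1.

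**Figure D4:**
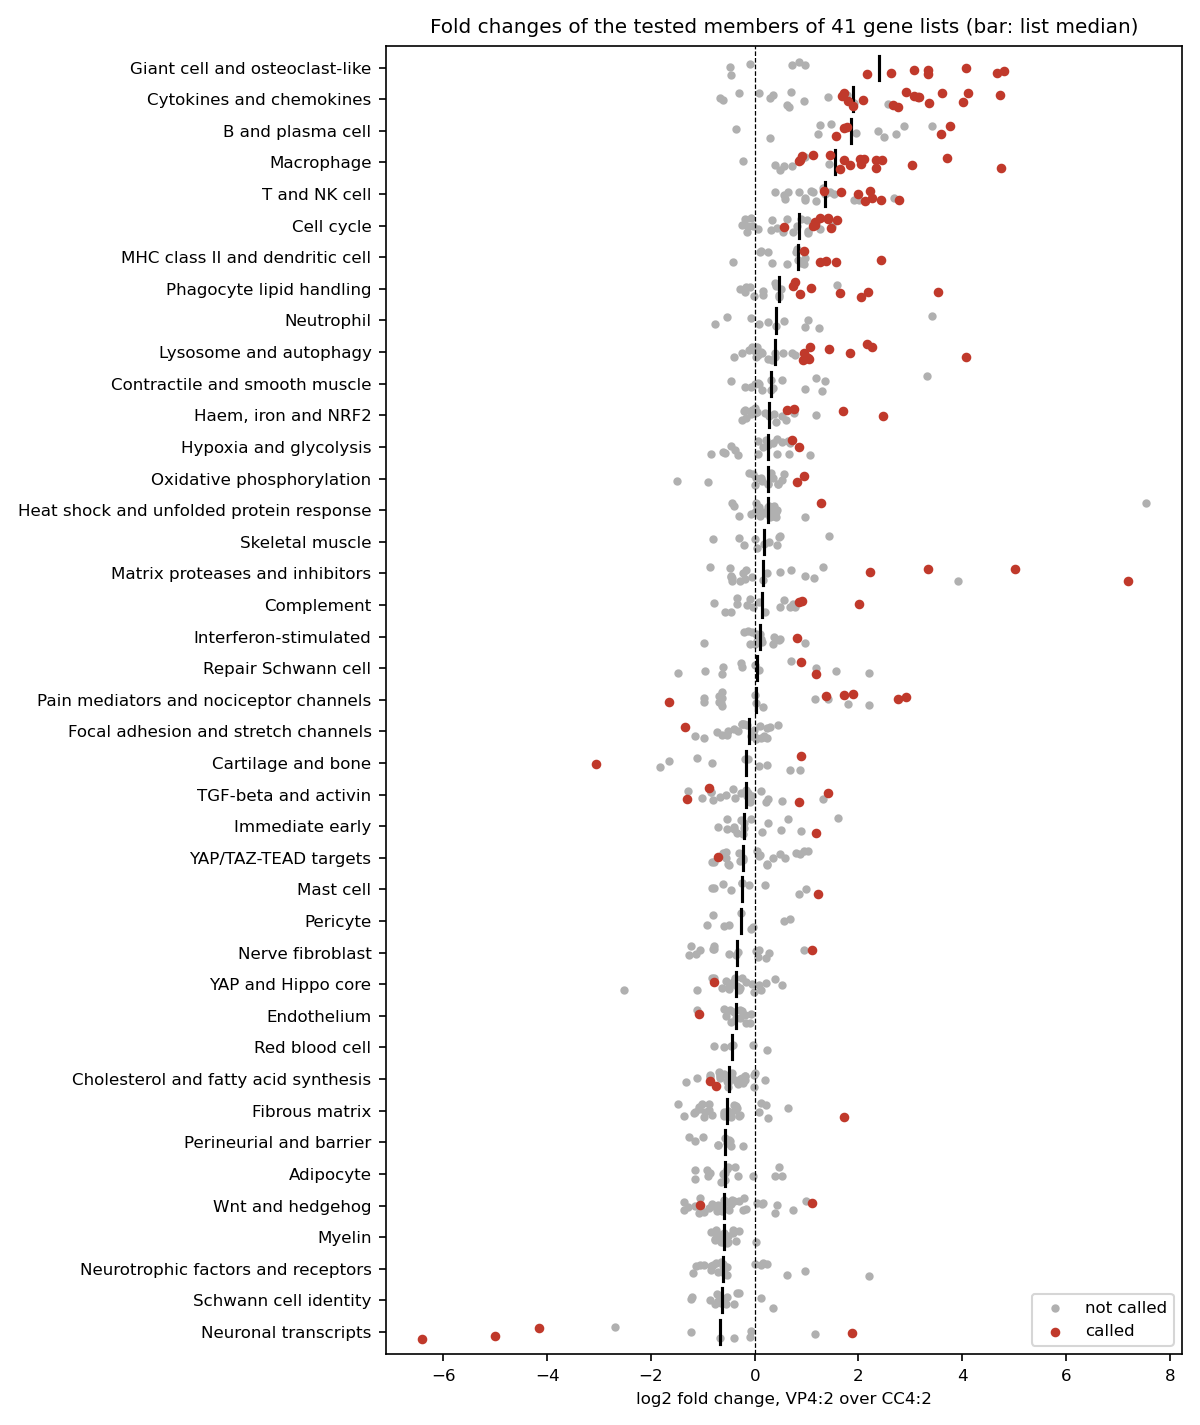
Log2 fold change of VP4:2 over CC4:2 (x axis) for each tested member of 41 gene lists (rows, ordered by median), with called genes in red, other genes in grey and the list median as a bar. The giant cell, cytokine, B cell, macrophage and T cell lists have the highest medians and hold red points at the right, while the myelin and Schwann cell identity lists have medians left of 0 and grey points alone.

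Neuronal and neurosecretory transcripts gave the largest falls, and they rested on few stumps. Of 11 tested, 1 was higher, 3 were lower and 7 were not called. Nefl, the light neurofilament chain of axons, had 0.219, 0.215 and 0.162 CPM in VP4:2 stumps, against 42.6, 0.451 and 9.45 in CC4:2 stumps. VP4:2 was low in every stump, but the CC4:2 level came from replicate 1 and, in part, replicate 3, and replicate 2 was low too. Its difference of -6.41 ± 1.40 log2 units (adjusted p = 0.022) was lost without any one of the VP4:2 stumps or CC4:2 replicate 1 (adjusted p 0.0043 to 0.11) and with the replicate block (adjusted p = 0.057). Nefm, the medium chain, had 0.548, 0.859 and 0.649 CPM in VP4:2 stumps, against 55.5, 0.789 and 10.7 in CC4:2 stumps, with the same stump highest and with CC4:2 replicate 2 inside the VP4:2 range (log2 fold change -5.01 ± 1.32, adjusted p = 0.0499), and it was called with 1 of the 6 stumps left out and not with the other 5. Scg2, a secretory granule protein, had 0.219, 0.322 and 0.703 CPM in VP4:2 stumps, against 1.64, 11.1 and 9.92 in CC4:2 stumps (log2 fold change -4.16 ± 0.95, adjusted p = 0.028), also called with 1 stump left out, CC4:2 replicate 1. The rise was Stmn2, a protein of growing axon tips, with 42.9, 48.0 and 37.9 CPM in VP4:2 stumps, against 19.1, 8.97 and 6.89 in CC4:2 stumps (log2 fold change 1.88 ± 0.44, adjusted p = 0.031), called with CC4:2 replicate 1 left out and with none of the other 5. The neuronal count was 0 without any one of the VP4:2 stumps, 2 without CC4:2 replicate 1 or 2, 1 without CC4:2 replicate 3 and 2 with the replicate block.

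Among the 10 largest falls with a mean of at least 1 CPM and no overlap between the groups, 3 kept their call with every stump left out. Islr2, a leucine-rich adhesion protein of growing axons, had 0.987, 0.967 and 1.08 CPM in VP4:2 stumps, against 6.83, 6.99 and 5.17 in CC4:2 stumps (log2 fold change -2.64 ± 0.38, adjusted p = 0.002). Cdhr1, a cadherin-related protein known from photoreceptors, had 0.713, 1.07 and 1.79 CPM in VP4:2 stumps, against 5.51, 5.75 and 6.004 in CC4:2 stumps (log2 fold change -2.27 ± 0.39, adjusted p = 0.0059). Depp1, a target of FOXO factors in fasting and hypoxia, had 5.92, 3.71 and 6.60 CPM in VP4:2 stumps, against 21.6, 29.7 and 17.2 in CC4:2 stumps (log2 fold change -2.08 ± 0.26, adjusted p = 0.0011). In all of them the VP4:2 stumps lay under the CC4:2 stumps with no overlap. The pacemaker channel Hcn4 had 13.5, 16.5 and 21.3 CPM in VP4:2 stumps, against 105, 174 and 127 in CC4:2 stumps, which also left a wide gap, yet its difference of -2.98 ± 0.78 log2 units (adjusted p = 0.047) was lost without any one of the 6 stumps (adjusted p 0.079 to 0.17) and with the replicate block (adjusted p = 0.082). Angptl1, a secreted angiopoietin-like protein, had 18.4, 37.7 and 37.1 CPM in VP4:2 stumps, against 121, 177 and 158 in CC4:2 stumps (log2 fold change -2.29 ± 0.49, adjusted p = 0.019), lost without VP4:2 replicate 1 or 3 or CC4:2 replicate 2. Syn2, a synaptic vesicle protein, Myo15b, an unconventional myosin, and Cilp2, a cartilage matrix protein, completed the 10 with Nefl and Scg2. Their log2 fold changes were -2.53 ± 0.52 for Syn2, -2.26 ± 0.57 for Myo15b and -3.05 ± 0.75 for Cilp2, and they were called with 2, 1 and 1 of the 6 stumps left out in turn.

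**Figure D5:**
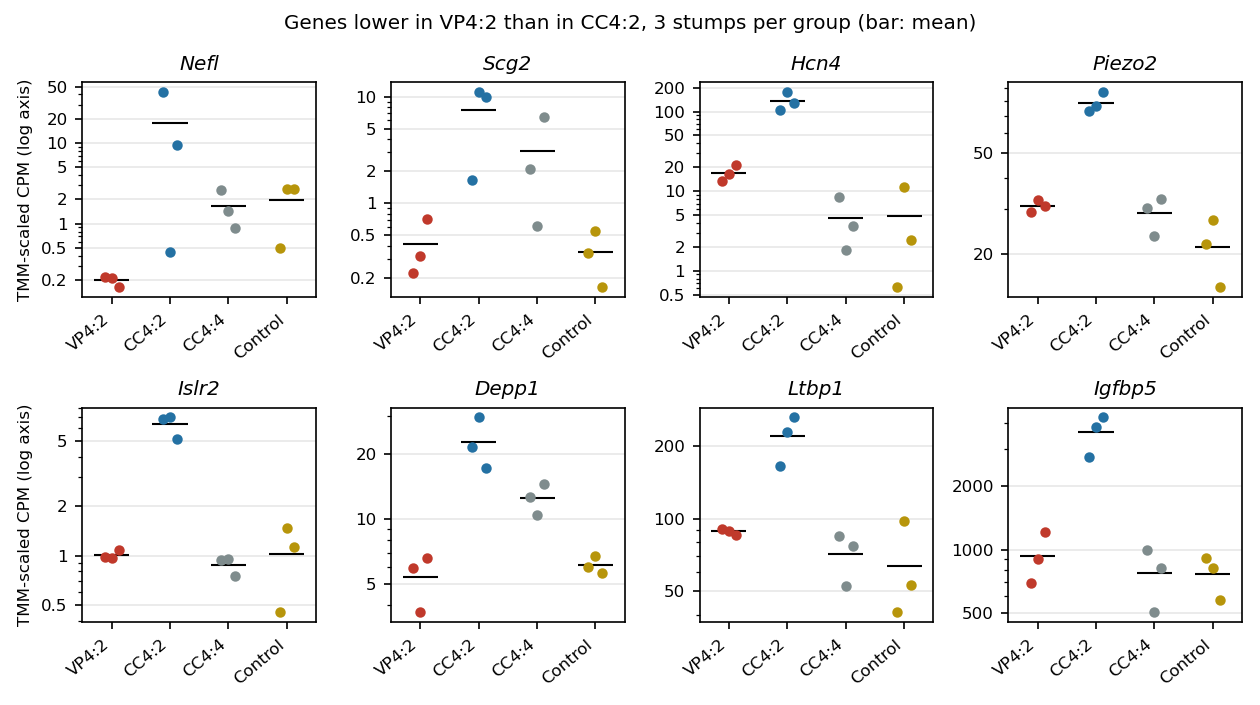
TMM-scaled CPM (log y axis) of 8 genes called lower in VP4:2 in each stump, by group, with the mean of 3 stumps as a bar. The 3 VP4:2 stumps lie under the 3 CC4:2 stumps in each panel, by a wide gap in Piezo2, Islr2 and Hcn4 and by a narrow one in Nefl, where CC4:2 replicate 2 is close to the VP4:2 stumps.

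Of the 10 largest rises with a usual symbol, a mean of at least 1 CPM and no overlap between the groups, 6 are given above (Mmp13, Mmp12, Dcstamp, Spp1, Cxcl6 and Ocstamp). Card9, the adaptor of fungal receptors, had 3.34, 1.504 and 1.51 CPM in VP4:2 stumps, against 0.159, 0 and 0 in CC4:2 stumps (adjusted p = 0.027), a call lost without VP4:2 replicate 1 or 3 or CC4:2 replicate 2 or 3. Its 117 counts in VP4:2 against 3 in CC4:2 gave a ratio of 39.3 per library size, with a 95% exact interval of 13.1 to 193 that covers counting error alone. Plppr4, a lipid phosphatase-related protein of synapses, had 2.36, 1.93 and 3.03 CPM in VP4:2 stumps, against 0, 0.0564 and 0.104 in CC4:2 stumps (adjusted p = 0.0017), 135 counts against 3 and a ratio of 45.3 with an interval of 15.2 to 223. Ankrd34c, an ankyrin-repeat protein of unsettled role, had 6.25, 10.6 and 14.3 CPM in VP4:2 stumps, against 0.529, 0.0564 and 0.0522 in CC4:2 stumps (log2 fold change 5.55 ± 0.94, adjusted p = 0.0056). Card9, Plppr4 and Ankrd34c were near 0 in CC4:2 and present in each VP4:2 stump.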

How the data were processed

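Per the labels' protocols, each of the 12 stumps (3 per group) gave a stranded poly(A) library that was sequenced from both ends over 150 bases. The authors deposited expected counts per gene, and the submitters' processing notes name HISAT2, StringTie, RSEM and DESeq2, with the genome build not given in the sources used here. These expected counts, of which 9.44% to 11.1% per library were not whole, were rounded to whole numbers. The table held a column per stump, and totals were 13763067 to 18632280 counts per library.

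VP4:2 was tested against CC4:2 with edgeR 4.0.16 in R 4.3.3 (TMM scaling, filterByExpr, quasi-likelihood test, 4 group terms over 12 libraries, 8 residual degrees of freedom, Benjamini-Hochberg adjusted p under 0.05 over 15712 of 30562 genes). Alternatives were DESeq2 1.42.0, limma-voom (limma 3.58.1), DESeq2-type scaling, other filters, the 6 libraries alone, a platform term, NovaSeq libraries alone, a replicate block, and each of the 6 libraries or Control replicate 1 left out. The scripts were tested on simulated data with known changes. They recovered 20 of 100 changes of 2-fold and 77 of 100 changes of 4-fold, and 3 of 100 calls were false. Most simulated 2-fold changes were therefore missed. No 2 libraries of a group agreed within sampling noise (chi-square per degree of freedom 47.3 to 318). Deviations of same-numbered VP4:2 and CC4:2 stumps from their group means correlated at 0.119, 0.277 and 0.433. However, VP4:2 replicate 1 correlated more with CC4:2 replicate 2, at 0.183, and replicate 3 shared its sequencer. Whether the numbers pair the stumps is therefore unsettled. The main fit held no replicate term, and the replicate block was run as an alternative.

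The genes, the 41 gene lists and the comparison were chosen with earlier results of these data known, so lists are described by counts and medians with no test. Genes were named by a rule. It took the 10 largest rises and 10 largest falls that were called and did not overlap. They also had to average 1 CPM or more and carry a unique symbol. From lists with at least 2 called genes it took up to 4 of smallest p and up to 2 against the list median. From each other list it took the gene of smallest p, called or not. Yap1, Wwtr1, Tead1, Ccn1, Ccn2 and Ankrd1 were always named. Other names were added after their values were seen, and a few genes are not reported here. Promoters were matched by symbol to RefSeq (GRCr8) for 10425 tested genes. Intervals cover counting error only.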

Additional observations from a re-analysis of the deposited data

How the results depend on the processing

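The direction of the result, more rises than falls, held under all alternatives run, and the number of calls did not. DESeq2 called 1841 genes, 1322 higher and 519 lower, including all 979. The 6 stumps alone gave 338 falls, and the NovaSeq stumps alone 202 calls, 194 higher and 8 lower. With 1 of the 6 stumps left out the calls ranged over 466 to 746, the rises over 438 to 639 and the falls over 28 to 120, lowest without VP4:2 replicate 3. Without Control replicate 1 the counts were 1496, with 1134 rises and 362 falls. At a fold of at least 2 there were 78 falls. Rises were 84.0% of the calls, against 71.8% by DESeq2, 70.9% in the 6 stumps alone, 96.0% in the NovaSeq stumps and 94.2% without VP4:2 replicate 1.

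With the replicate number as a block, which treats same-numbered stumps as pairs, 853 genes were called, 748 higher and 105 lower, and 788 of them were among the 979. Of the 979 calls, 164 passed in all 16 settings. Of 106 genes named by rule 90 were called, 47 of them with each of the 6 stumps left out. With 3 stumps per group, a gene that was not called is not shown to be the same in both groups. The labels give neither the dose nor a vehicle, so verteporfin and its carrier cannot be told apart, and the cause of each moved count was not tested.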

Other observations

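Further groups were assembled after the results had been seen and are described by their values alone. The enzyme complex by which phagocytes make superoxide rose, with 6 of 6 tested subunits of the NADPH oxidase higher and a median log2 fold change of 1.62. Cybb, its membrane subunit, had 647, 526 and 768 CPM in VP4:2 stumps, against 138, 126 and 142 in CC4:2 stumps (log2 fold change 2.26 ± 0.22, adjusted p = 0.00039). Of 13 Toll-like receptors, sensors of microbial and cell debris, 6 were higher, 0 lower and 7 not called. Tlr2 had 57.2, 47.8 and 58.9 CPM in VP4:2 stumps, against 18.3, 15.2 and 21.2 in CC4:2 stumps (log2 fold change 1.58 ± 0.18, adjusted p = 0.00056). The 4 tested Fc gamma receptor genes, 1 of them a pseudogene, were all higher, with Fcgr2b at 102, 118 and 138 CPM in VP4:2 stumps, against 32.1, 23.0 and 25.8 in CC4:2 stumps (log2 fold change 2.14 ± 0.23, adjusted p = 0.00049). Reads may be split between those of these receptor genes that are near-identical. Of 17 subunits of the V-ATPase, the proton pump of lysosomes, 9 were higher, 0 lower and 8 not called. Mcoln3, a lysosomal cation channel, had 20.9, 15.4 and 20.7 CPM in VP4:2 stumps, against 2.65, 2.37 and 2.40 in CC4:2 stumps (log2 fold change 2.94 ± 0.31, adjusted p = 0.00046). Of the 3 channels of its family tested, 2 were higher, and Mcoln1 was not called (log2 fold change -0.06 ± 0.16, adjusted p = 0.86).

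Several basement membrane chains fell. Of 23 tested, 6 were lower, 0 higher and 17 not called, and the median was -0.90, against 0.999% of all genes called lower. Of the 23 fold changes 22 were below 0, and in 17 genes all VP4:2 values lay under all CC4:2 values, against 14.6% of all genes. Hmcn1, Lamb2 and Lama4 each lost the call in at least 5 of the 6 fits with a stump left out, Nid2 without VP4:2 replicate 1 or 3 or CC4:2 replicate 1 or 2, and Col4a3 without VP4:2 replicate 1 or 3. Col4a5, a chain of type IV collagen, had 18.0, 17.4 and 17.0 CPM in VP4:2 stumps, against 39.8, 82.4 and 55.9 in CC4:2 stumps (log2 fold change -1.77 ± 0.33, adjusted p = 0.0094). Of 19 clock genes 5 were lower (Per1, Per2, Per3, Dbp and Tef), 0 higher and 14 not called. Per2, Per3 and Tef each lost the call in at least 5 of those 6 fits, and Dbp was lost without VP4:2 replicate 1 or 3. Per1, a repressor of the clock that glucocorticoids also induce, had 21.8, 23.8 and 16.3 CPM in VP4:2 stumps, against 80.7, 94.6 and 45.2 in CC4:2 stumps (log2 fold change -1.83 ± 0.31, adjusted p = 0.0054), whereas Bmal1 had 27.5, 36.4 and 28.4 CPM in VP4:2 stumps, against 24.6, 27.5 and 32.0 in CC4:2 stumps (log2 fold change 0.13 ± 0.22, adjusted p = 0.76). The labels do not give the hour of collection. Klf9, a glucocorticoid-induced factor, had 46.9, 43.8 and 43.9 CPM in VP4:2 stumps, against 114, 131 and 82.3 in CC4:2 stumps (log2 fold change -1.28 ± 0.19, adjusted p = 0.0027). Of 11 glucocorticoid-responsive genes 3 were lower (Klf9, Per1 and Ddit4), 0 higher and 8 not called, and 4 of those 8 lay above 0, among them Mt2A, a metallothionein (log2 fold change 0.74 ± 0.35, adjusted p = 0.24). Ddit4 was called only without VP4:2 replicate 1 or CC4:2 replicate 3 among the 6 fits. In the insulin-like growth factor system 2 of 10 genes were lower and 0 higher, and Igfbp6, the other fall, was lost without VP4:2 replicate 3. Igfbp5, a binding protein of these factors, had 695, 901 and 1215 CPM in VP4:2 stumps, against 2758, 3813 and 4260.4 in CC4:2 stumps (log2 fold change -1.95 ± 0.32, adjusted p = 0.0047), every VP4:2 stump under every CC4:2 stump, beside 772 ± 251 CPM in CC4:4 and 767 ± 171 CPM in Control.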
